A study of Homo sapiens with 8 samples.

Results

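The cornified envelope genes studied here are SPRR1A, SPRR1B, SPRR2A, SPRR2D, SPRR2E, SPRR3, IVL, CNFN, SCEL and TGM1. The set was chosen by name for roles in the epidermis, with earlier results of these data known. All 10 were found among the 19942 protein-coding genes of the expression tables, each with 1 record in every table. Expression was measured by paired-end sequencing of polyA RNA in 8 libraries, 2 in each of 4 groups. HCT116, a human colorectal cancer cell line, and UF1hypo, a single clone of HCT116 with a heterozygous UHRF1 knockout, each carried 1 of 2 hairpins, a scrambled control named shScr or shUHRF1, which targets UHRF1. All cells were therefore HCT116 or derived from it, and all carried a hairpin. Hairpins were delivered by lentivirus into stable pools, and the labels name no harvest time. They also do not say whether the 2 libraries of a group came from separate cultures, so the p-values below measure the spread between these libraries, which may be technical.

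The cornified envelope is the crosslinked protein shell that replaces the plasma membrane of keratinocytes in the outer layers of the skin and other stratified squamous epithelia. Small proline-rich proteins (the SPRR family) and involucrin (IVL) are its precursors, sciellin (SCEL) and cornifelin (CNFN) are further components, and transglutaminase 1 (TGM1) is the membrane-bound enzyme that crosslinks them. The SPRR genes and IVL lie in the epidermal differentiation complex, a cluster of genes on chromosome 1 that is switched on late in keratinocyte differentiation. Colonic epithelium is a simple epithelium and forms no cornified envelope. UHRF1 recognises hemimethylated CpG sites after replication and recruits the maintenance methyltransferase DNMT1.

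The stretch before the start site is shown for 3 of the genes because they span the range seen in these libraries. IVL was listed above 0 in UF1hypo cells only, SPRR1A was listed at 0 in every library, and CNFN had the highest level of the 10 genes. Sequences are RefSeq promoters on GRCh38.p14, 250 bases up to the base before the start site, written 5′ to 3′ on the strand of the gene, with CG dinucleotides in capitals. The IVL stretch is chr1:152908296-152908545 on the plus strand, the SPRR1A stretch is chr1:152983831-152984080 on the plus strand, and the CNFN stretch is chr19:42390298-42390547 on the minus strand.
IVL: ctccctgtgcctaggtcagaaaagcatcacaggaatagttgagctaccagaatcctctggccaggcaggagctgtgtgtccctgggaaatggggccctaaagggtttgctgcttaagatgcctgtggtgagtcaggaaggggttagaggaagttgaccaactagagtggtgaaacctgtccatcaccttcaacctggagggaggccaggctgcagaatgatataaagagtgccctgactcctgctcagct
SPRR1A: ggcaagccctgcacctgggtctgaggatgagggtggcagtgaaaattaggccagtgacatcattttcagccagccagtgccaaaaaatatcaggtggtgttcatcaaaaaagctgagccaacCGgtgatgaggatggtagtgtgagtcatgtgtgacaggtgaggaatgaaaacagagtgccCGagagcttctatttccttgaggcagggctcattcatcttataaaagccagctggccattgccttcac
CNFN: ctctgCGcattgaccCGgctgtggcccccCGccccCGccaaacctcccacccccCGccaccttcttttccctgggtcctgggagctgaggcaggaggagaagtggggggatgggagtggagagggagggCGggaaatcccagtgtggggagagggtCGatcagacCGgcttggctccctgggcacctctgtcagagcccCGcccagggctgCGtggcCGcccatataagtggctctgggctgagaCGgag

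The IVL stretch held 0 CG dinucleotides, the SPRR1A stretch 2 and the CNFN stretch 12. Of the 10 genes, 7 were in the promoter table. SPRR1B and SPRR3 also held 0, and SPRR2A and SCEL each held 1. Across 35116 promoters of the table, the median was 11 with quartiles of 3 and 23, and 38.1% of promoters held 5 or fewer, as 6 of these 7 genes did. CNFN alone of the 7 therefore lay above the median of all promoters. Searched on both strands, TATAAA occurred in 4 of the 7 stretches (IVL, SPRR1A, SPRR2A and SPRR3) and in 10.7% of all promoters. TGANTCA, the letters bound by AP-1 factors, occurred in 6 of the 7, all but CNFN, and in 6.57% of all promoters. AACCNGTT, which resembles the site of grainyhead-like factors, occurred in 0 of the 7 and in 1.49% of all promoters. These are matches of letters in 250 bases and not measured binding sites. SPRR2D, SPRR2E and TGM1 are named only.

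Depth, recovered as aligned bases, ranged from 5.42 to 7.83 gigabases per library, and Pearson's r between the 2 libraries of a group was 0.991 to 0.992 in 3 groups and 0.956 in UF1hypo shUHRF1. The UHRF1 transcript, the target of the hairpin, had a TPM (a level scaled for gene length and to a common library total) of 87.5 and 98.4 in the HCT116 control libraries against 31.7 and 32.7 on knockdown. In the UF1hypo controls it was 47.3 and 50.6 against 34.1 and 21.1 on knockdown. Both shUHRF1 libraries lay below both shScr libraries in each line. The knockdown changed it by a log2 value of −1.50 in HCT116 (limma, adjusted p = 0.0565) and −0.84 in UF1hypo (limma, adjusted p = 0.0406), and neither passed both thresholds given below. The HCT116 value passed both in 6 of 19 alternatives, among them the 4 HCT116 libraries alone, and the UF1hypo value in 2. Of 10 colorectal epithelial markers, 7 exceeded 1 TPM in every library, with summed levels of 4355 to 4410 TPM in the HCT116 controls, 5486 to 5605 on knockdown in HCT116, 8822 to 9095 in the UF1hypo controls and 9967 to 12780 on knockdown in UF1hypo, while VIL1, LGR5 and CEACAM5 stayed below 1 TPM.

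Few of the 10 genes were detected. SPRR1A, SPRR1B, SPRR2A, SPRR2E and SPRR3 were listed at 0 in all 8 libraries, as were 12.3% of all protein-coding genes (2443 genes). Another 3 genes, SPRR2D, CNFN and TGM1, exceeded 1 TPM in at least 1 library, as did 69.1% of all protein-coding genes, and only CNFN and TGM1 exceeded 1 TPM in every library. IVL and SCEL were listed above 0 in some libraries and stayed below 1 TPM in all. Of 86 ribosomal protein and housekeeping genes, 0 were listed at 0 in any library. Read counts are not part of the tables, so a gene listed at 0 is not shown to be absent, and the limit that its depth allows is unknown. The summed TPM of the 10 genes was 17.9 and 12 for HCT116 with the control hairpin, 18.4 and 23.1 for HCT116 with the UHRF1 hairpin, 11.3 and 17.0 for UF1hypo with the control hairpin and 31.2 and 12.8 for UF1hypo with the UHRF1 hairpin. In HCT116 both shUHRF1 sums lay above both shScr sums, the nearest being 18.4 and 17.9, and in UF1hypo the groups overlapped. CNFN and TGM1 made up most of each sum.

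**Figure D1:**
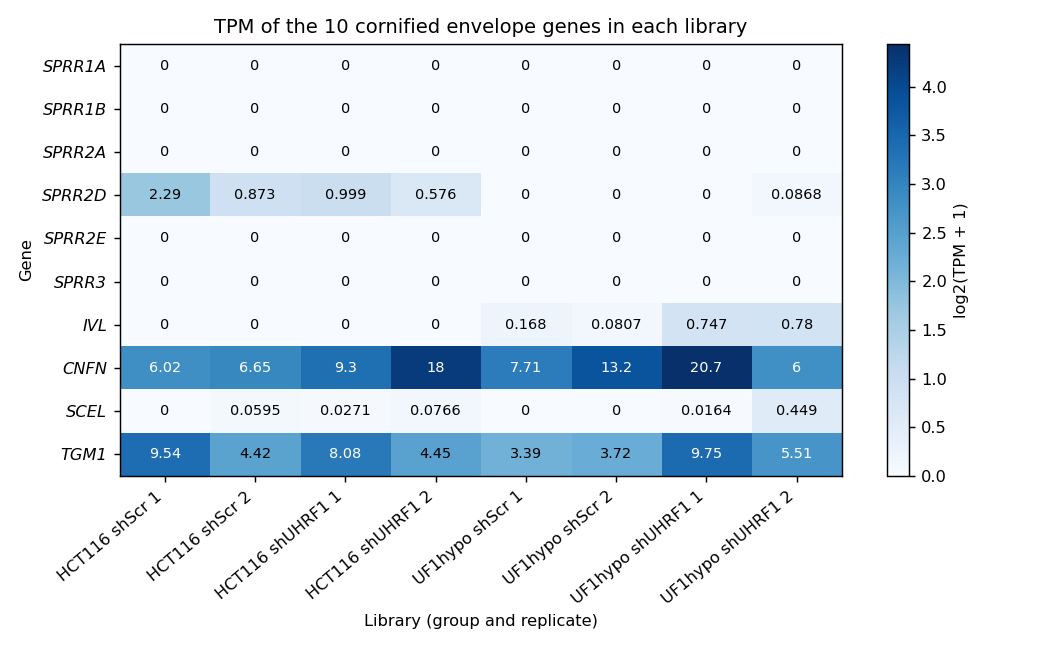
TPM of the 10 cornified envelope genes (rows) in each of the 8 libraries (columns), printed in each cell and coloured by log2(TPM + 1). The rows of CNFN and TGM1 are filled throughout, SPRR2D is above 0.5 TPM only in the 4 HCT116 libraries, IVL is above 0 only in the 4 UF1hypo libraries, and 5 rows hold only 0.

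Each of the 4 comparisons asks a separate question about these genes. The hairpin effect was taken within HCT116 and within UF1hypo, the difference of these effects was tested, and UF1hypo was set against HCT116 where both carried shScr. The comparisons share libraries. Log2 fold changes are differences of mean log2(TPM + 1), which understates changes of genes with low TPM. A gene was tested where it exceeded 1 TPM in at least 1 library of the comparison, and called at a limma adjusted p below 0.05 (Benjamini-Hochberg over all tested genes) with an absolute log2 fold change above 1. For a single gene, 2 libraries against 2 cannot reach a two-sided exact permutation p below 0.33. On knockdown in HCT116, 0 of the 3 tested genes were called, with 0.0708% of all tested genes called. That share was 9 of 12704 genes and depended on the fit, since 89 were called with the 4 HCT116 libraries alone. On knockdown in UF1hypo, 0 of 2 were called, against 8.53% of all tested genes. For the difference of knockdown effects, 0 of 3 were called, against 5.09%. For UF1hypo against HCT116 with shScr, 1 of 3 was called, SPRR2D, which was lower in UF1hypo, against 3.54%. SPRR2D passed the TPM filter there only through replicate 1 of HCT116 shScr, at 2.29 TPM, in the group where it was higher. The filter therefore favoured that direction, and the count of 1 of 3 is no separate support for it. At an unadjusted p below 0.05 the counts of tested genes among the 10 were the same, 0, 0, 0 and 1.

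SPRR2D (ENSG00000163216.7; GRCh38 chromosome 1, 153039732 to 153041931, minus strand) was the only SPRR gene of the 6 listed above 0. Its TPM was 2.29 and 0.873 for HCT116 with the control hairpin, 0.999 and 0.576 for HCT116 with the UHRF1 hairpin, 0 and 0 for UF1hypo with the control hairpin and 0 and 0.0868 for UF1hypo with the UHRF1 hairpin. Every HCT116 library lay above every UF1hypo library. The mean read coverage per base behind these values was 3.44, 1.82, 2.21 and 1.07 in the HCT116 libraries and at most 0.20 in the UF1hypo libraries. Between the lines with shScr its log2 fold change was −1.31 (limma, standard error 0.306, 95% interval −2.01 to −0.62, adjusted p = 0.0475), and since both UF1hypo shScr libraries were at 0 this value depends on the 1 added to TPM and gives no fold. The call was lost with FPKM (adjusted p = 0.0592), with median-ratio scaling (adjusted p = 0.052), with all annotated genes (adjusted p = 0.0962) and with a block for the replicate number (adjusted p = 0.0632), all in limma. It was also lost without either HCT116 shUHRF1 library or either UF1hypo shScr library. Without replicate 1 of HCT116 shScr, the library with the highest value, SPRR2D no longer passed the TPM filter and could not be tested.

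On knockdown in HCT116, SPRR2D had a TPM of 0.788 ± 0.299 (SD, n = 2) against 1.58 ± 1.00 (SD, n = 2), and the ranges overlapped. The log2 fold change was −0.48 (limma, 95% interval −1.19 to 0.22, adjusted p = 0.939). Its transcript is 677 bases long and is 94.0% identical to that of SPRR2A and 91.9% identical to that of SPRR2E, with identical runs of up to 142 and 127 bases. Reads from these copies could therefore be split or assigned between them, and the split between SPRR2D and the SPRR2 genes listed at 0 is uncertain. SPRR1A and SPRR1B share 79.1% of their transcript. The record of SPRR1A in the tables covers chromosome 1, 152985231 to 152985500, a shorter model than the 152984081 to 152985814 of GENCODE 44.

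IVL (ENSG00000163207.7; chromosome 1, 152908546 to 152911886, plus strand), the glutamine-rich precursor laid down early in envelope assembly, was listed at 0 in all 4 HCT116 libraries. In UF1hypo its TPM was 0.168 and 0.0807 with shScr and 0.747 and 0.78 with shUHRF1, a ratio of the means of 6.15. Both shUHRF1 libraries lay above both shScr libraries, at a mean coverage per base of 2.42 and 2.35 against 0.56 and 0.26. IVL stayed below the TPM filter and was not tested there. Without the filter, its log2 fold change on knockdown in UF1hypo was 0.65 (limma, standard error 0.0614, adjusted p = 0.00139), which was under the threshold of 1. That value is bounded by the 1 added to TPM, and with 0.1 added it was 1.97 (limma, adjusted p = 0.00789), past both thresholds. With the 4 UF1hypo libraries alone, so that the libraries at 0 do not enter the spread, the limma adjusted p was 0.0524. With the correction for GC content and length the log2 fold change was 0.47 (limma, adjusted p = 0.0445).

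The difference between the knockdown effects on IVL was also 0.65 (limma without the filter, adjusted p = 0.00998), and the limma adjusted p was 0.183 with the correction for GC content and length. That correction also shifts values listed at 0, as IVL was in all HCT116 libraries. The second p-value therefore cannot be read as a dependence on GC content. Leaving out any of the 4 HCT116 libraries, each of which was at 0 for IVL, gave limma adjusted p-values of 0.0585 to 0.0634. Between the lines with shScr the log2 fold change of IVL was 0.17 (limma without the filter, adjusted p = 0.344). GENCODE 44 lists an antisense long noncoding gene that overlaps IVL, whereas the annotation of the deposited data lists no gene overlapping it. Whether reads were counted by strand is not given in the sources used here, so reads of the 2 genes cannot be told apart.

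CNFN (ENSG00000105427.10; chromosome 19, 42387019 to 42390297, minus strand), a small cysteine-rich envelope component, had the highest mean level of the 10 genes. Its TPM was 6.02 and 6.65 for HCT116 with the control hairpin, 9.30 and 18.0 for HCT116 with the UHRF1 hairpin, 7.71 and 13.2 for UF1hypo with the control hairpin and 20.7 and 5.998 for UF1hypo with the UHRF1 hairpin. In HCT116 both shUHRF1 libraries lay above both shScr libraries, whereas in UF1hypo the shUHRF1 libraries lay on either side of the shScr libraries. The group means were, from lowest to highest, 6.34 ± 0.44 (SD, n = 2) in HCT116 shScr, 10.4 ± 3.87 in UF1hypo shScr, 13.4 ± 10.4 in UF1hypo shUHRF1 and 13.6 ± 6.15 in HCT116 shUHRF1. The last 3 did not differ beyond their spread.

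For CNFN the knockdown gave a log2 fold change of 0.93 in HCT116 (limma, 95% interval −0.22 to 2.08, adjusted p = 0.891) and 0.15 in UF1hypo (limma, 95% interval −1.03 to 1.33, adjusted p = 0.879). The difference between these effects was −0.78 (limma, 95% interval −2.45 to 0.89, adjusted p = 0.652). Between the lines with shScr it was 0.60 (limma, adjusted p = 0.575). None of these was called, and the upper ends of both knockdown intervals lay above 1. The sign in UF1hypo rested on single libraries, since the value was −0.67 without replicate 1 of UF1hypo shUHRF1 and −0.20 without replicate 1 of UF1hypo shScr.

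The libraries of UF1hypo differed in a way that followed base composition. Across 13781 genes, which are not independent replicates, the difference between the 2 UF1hypo shUHRF1 libraries had a Spearman's rho of 0.814 with the GC content of the transcript, and that between the UF1hypo shScr libraries had −0.508. In the HCT116 groups it was −0.0417 and −0.068. The CNFN transcript has a GC content of 61.9%, higher than 87.6% of expressed protein-coding genes, and those of TGM1 and IVL have 58.7%, whereas that of SCEL has 37.9%. In UF1hypo shUHRF1, CNFN and TGM1 were higher in replicate 1 and SCEL in replicate 2, and IVL was at 0.747 and 0.78 TPM in the 2 libraries. TGM1 also differed between replicates in HCT116, at 9.54 and 4.42 TPM with shScr and 8.08 and 4.45 TPM with shUHRF1. CNFN was at 9.30 and 18.0 TPM in HCT116 shUHRF1 but at 6.02 and 6.65 TPM in HCT116 shScr. The part of base composition in these differences between replicates was not tested. With the correction for GC content and length, the log2 fold change on knockdown in UF1hypo was −0.07 for CNFN and 0.64 for TGM1, and neither was called.

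TGM1 (ENSG00000092295.12; chromosome 14, 24249114 to 24264432, minus strand), the crosslinking enzyme, was above 1 TPM in all 8 libraries. Its TPM was 9.54 and 4.42 for HCT116 with the control hairpin, 8.08 and 4.45 for HCT116 with the UHRF1 hairpin, 3.39 and 3.72 for UF1hypo with the control hairpin and 9.75 and 5.51 for UF1hypo with the UHRF1 hairpin. The HCT116 groups overlapped, and in UF1hypo both shUHRF1 libraries lay above both shScr libraries. Group means ran from 3.55 ± 0.233 (SD, n = 2) in UF1hypo shScr by way of 6.26 ± 2.56 in HCT116 shUHRF1 and 6.98 ± 3.62 in HCT116 shScr to 7.63 ± 3.002 in UF1hypo shUHRF1, and the upper 3 did not differ beyond their spread.

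The ratio of the mean TPM of TGM1 on knockdown in UF1hypo was 2.15. Its log2 fold change there was 0.88 (limma, 95% interval −0.02 to 1.77, adjusted p = 0.19), and in HCT116 it was −0.10 (limma, 95% interval −0.98 to 0.78, adjusted p = 1). The difference between the effects was 0.98 (limma, 95% interval −0.28 to 2.25, adjusted p = 0.41). With shScr, UF1hypo lay below HCT116, at a log2 fold change of −0.73 (limma, 95% interval −1.61 to 0.15, adjusted p = 0.365). None was called.

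**Figure D2:**
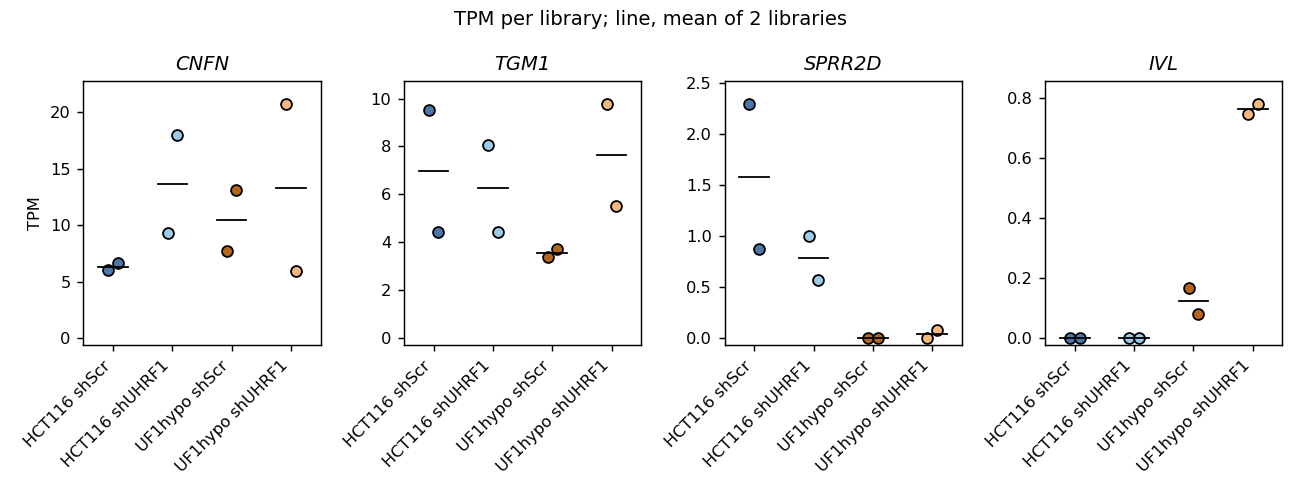
TPM (y axis) of CNFN, TGM1, SPRR2D and IVL in each library (points), by group (x axis), with a line at the mean of the 2 libraries. IVL is at 0 in both HCT116 groups and near 0.76 TPM in UF1hypo shUHRF1, SPRR2D is near 0 in UF1hypo, and the points of CNFN and TGM1 overlap between most groups.

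**Figure D3:**
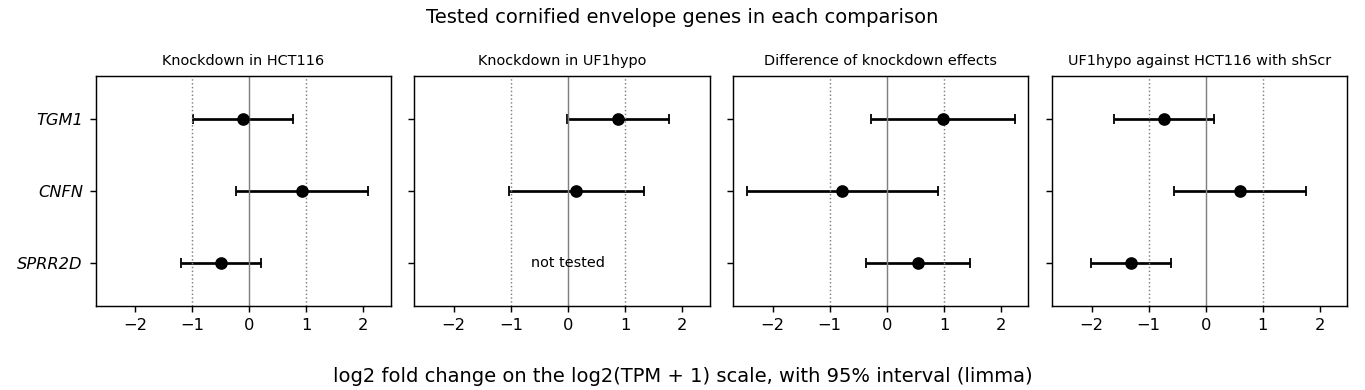
Log2 fold change with its 95% interval from limma (x axis) of the 3 genes that passed the TPM filter, in each of the 4 comparisons (panels); dotted lines mark an absolute value of 1. The interval of SPRR2D in UF1hypo against HCT116 is the only one that excludes 0.

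SCEL (ENSG00000136155.17; chromosome 13, 77535674 to 77645263, plus strand), a LIM-domain precursor of the envelope, was close to the limit of detection. Its TPM was 0 and 0.0595 for HCT116 with the control hairpin, 0.0271 and 0.0766 for HCT116 with the UHRF1 hairpin, 0 and 0 for UF1hypo with the control hairpin and 0.0164 and 0.449 for UF1hypo with the UHRF1 hairpin. The value of 0.449 in replicate 2 was the only one above 0.1 TPM. Without the TPM filter its log2 fold change on knockdown in UF1hypo was 0.28 (limma, adjusted p = 0.312) and 0.02 without that library. Other annotated genes overlap SCEL, so its reads are uncertain as well.

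The neighbourhood of the SPRR genes and IVL was close to 0 TPM throughout. Between TCHHL1 and LORICRIN (chromosome 1, 152084141 to 153262124) the tables hold 45 protein-coding genes, of which 31 were listed at 0 in all libraries and 1, SPRR2D, exceeded 1 TPM in any. TCHH, a hair follicle envelope protein, and IVL came next with maxima of 0.939 and 0.78 TPM. The summed TPM of the 45 genes was 2.39 and 1.55 for HCT116 with the control hairpin, 1.38 and 0.823 for HCT116 with the UHRF1 hairpin, 0.679 and 0.834 for UF1hypo with the control hairpin and 2.81 and 2.52 for UF1hypo with the UHRF1 hairpin. Both UF1hypo shUHRF1 libraries lay above the other 6, and most of the HCT116 shScr sum was SPRR2D. LORICRIN, the major precursor of the epidermal envelope, was listed at 0 in every library, and of 35 listed genes of the complex other than the members, LORICRIN among them, 0 passed the TPM filter in any comparison.

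Cornification needs further genes outside the complex. Of 94 genes listed with these 10, which are other envelope precursors, other transglutaminases, desquamation proteases and inhibitors, barrier lipid enzymes, regulators and the rest of the epidermal differentiation complex, 33 to 37 passed the TPM filter in a comparison. On knockdown in HCT116, 1 of 33 was called, with 0.0708% of all tested genes called and a median log2 fold change of −0.19 against −0.03 over all tested genes. On knockdown in UF1hypo, 8 of 35 were called, 7 higher and 1 lower, against 8.53% of all tested genes, with a median of 0.31 against 0.04. The difference of knockdown effects was called for 7 of 37, 6 higher and 1 lower in UF1hypo, against 5.09%, with a median of 0.42 against 0.08. Between the lines with shScr, 9 of 35 were called, 8 higher and 1 lower in UF1hypo, against 3.54%, with a median of 0.44 against −0.05. Of those higher, KLK5 and KLK11 passed the TPM filter only through UF1hypo shScr. PRDM1, the 1 lower, passed it only through HCT116 shScr. The filter favoured those directions, so the counts are no separate support for them. The lists were chosen with earlier results of these data known.

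Among transglutaminases, TGM2 stood apart from TGM1. TGM2, the tissue transglutaminase that is not an epidermal envelope enzyme, had a TPM of 2.37 and 3.20 in the UF1hypo controls and 123 and 76.8 on knockdown there, while its 4 HCT116 libraries ranged from 3.55 to 6.38. Its log2 fold change on knockdown in UF1hypo was 4.70 (limma, standard error 0.27, adjusted p = 2.06e-05), called in all 19 alternatives. TGM3, the other main epidermal transglutaminase, was listed at 0 in all 8 libraries, and TGM4, TGM5, TGM6, TGM7 and F13A1 did not pass the TPM filter.

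Some of the proteases that shed the outermost corneocytes were higher in UF1hypo, and 2 of them, KLK5 and KLK11, were called higher again there on knockdown. KLK5, the kallikrein that starts the desquamation cascade, had a TPM of at most 0.786 in HCT116, then 11.8 and 13.6 in the UF1hypo controls and 92.2 and 70.9 on knockdown there. Its log2 fold change was 3.28 between the lines with shScr (limma, adjusted p = 0.000281) and 2.58 on knockdown in UF1hypo (limma, adjusted p = 0.000595). On knockdown KLK11 also rose, by 2.50 on the log2 scale (limma, adjusted p = 0.000258), from 0.789 and 1.39 to 11.4 and 10.03 TPM. Of the 10 proteases and inhibitors tested, 2 were called on knockdown in UF1hypo and 5 between the lines, all higher in UF1hypo, with KLK10 at a log2 fold change of 3.07 and KLK6 at 1.94 (limma, adjusted p = 0.000145 and 0.0039). Between the lines, KLK5 and KLK11 passed the TPM filter only through UF1hypo shScr, the group where they were higher. The filter therefore favoured that direction for both. KLK11 was called there at 1.05, a call lost in 10 of 18 alternatives, among them without either HCT116 shScr library, either HCT116 shUHRF1 library or replicate 1 of UF1hypo shScr. KLK6 was not called without replicate 1 of HCT116 shScr or replicate 2 of UF1hypo shScr. KLK7 was called between the lines at 1.89 (limma, adjusted p = 0.000797), in all 19 alternatives as well. Its mean was 57.6 TPM in the UF1hypo controls and 59.8 TPM on knockdown there. On that knockdown 8 of the 10 tested had a positive log2 fold change. Mean levels of KLK8 and KLK14 went lower, from 70.7 to 46.5 and from 1.55 to 0.374 TPM, and neither was called. SPINK5, the inhibitor of these kallikreins, and CASP14, the caspase of cornification, stayed below 1 TPM.

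Of the 9 other precursor and scaffold genes tested, SBSN and CLIC3 were called higher on knockdown in UF1hypo. SBSN, a secreted protein of differentiating keratinocytes, went from 1.00 and 0.291 TPM to 4.36 and 2.51 TPM, with a log2 fold change of 1.43 (limma, adjusted p = 0.0277). CLIC3, a chloride intracellular channel protein, went from 99.5 and 123 to 325 and 262 TPM, a change of 1.39 (limma, adjusted p = 0.0189), and with shScr it lay 3.49 above HCT116 (limma, adjusted p = 0.000336). The SBSN call was lost with the 4 UF1hypo libraries alone, with FPKM and with a pseudocount of 0.1. The knockdown calls of both were lost without either HCT116 shUHRF1 library, without replicate 2 of UF1hypo shScr or without replicate 1 of UF1hypo shUHRF1, and that of CLIC3 also without replicate 1 of UF1hypo shScr. EVPL and PPL, the plakins that form the scaffold beneath the envelope, were well expressed. EVPL was at 45.6 to 52.7 TPM in the HCT116 libraries and 69.2 to 92.5 TPM in the UF1hypo libraries. PPL was at 31.7 to 40.4 TPM in HCT116 and 73.4 to 130 TPM in UF1hypo. For both, every UF1hypo library lay above every HCT116 library, but neither was called in any comparison.

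Among barrier lipid enzymes, ALOXE3, a lipoxygenase of the ceramide pathway, was the 1 of 5 called on knockdown in UF1hypo, from 5.21 and 6.42 to 18.6 and 11.4 TPM. Its log2 fold change was 1.196 (limma, adjusted p = 0.0184), and the call was lost with the 4 UF1hypo libraries alone, with the correction for GC content and length, without either UF1hypo shScr library and without replicate 1 of UF1hypo shUHRF1.

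Of 14 regulators of cornification, GRHL3, a grainyhead-like factor of barrier formation, was called in both lines. Its TPM was 1.76 and 2.59 for HCT116 with the control hairpin, 13.3 and 13.2 for HCT116 with the UHRF1 hairpin, 9.16 and 9.18 for UF1hypo with the control hairpin and 36.7 and 28.8 for UF1hypo with the UHRF1 hairpin. The log2 fold change was 2.18 on knockdown in HCT116 (limma, adjusted p = 0.0255) and 1.72 in UF1hypo (limma, adjusted p = 0.00148). The HCT116 call was lost with no TPM filter, with the replicate block, and without any one of the 4 HCT116 libraries or either UF1hypo shScr library, and the UF1hypo call was kept in all 19 alternatives. Between the lines with shScr, GRHL3 was 1.69 higher in UF1hypo (limma, adjusted p = 0.00321), a call lost without replicate 1 of HCT116 shScr.

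ELF3, an epithelial ETS factor, fell on knockdown in UF1hypo from 143 and 138 to 64.2 and 48.1 TPM, a log2 fold change of −1.32 (limma, adjusted p = 0.00253). Between the lines with shScr, OVOL1, a zinc finger repressor of the epithelial lineage, was 1.01 higher in UF1hypo (limma, adjusted p = 0.0161) and PRDM1, a transcriptional repressor, was 2.08 lower on that scale (log2 fold change −2.08, limma, adjusted p = 0.0014). The OVOL1 call was lost with FPKM, with the GC content and length correction, and without any one of the 4 HCT116 libraries or either UF1hypo shScr library. TP63, the master regulator of stratified epithelia, was listed at 0 in HCT116 and reached at most 0.309 TPM in UF1hypo, and ZNF750 exceeded 1 TPM in 1 library at 1.37.

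**Figure D4:**
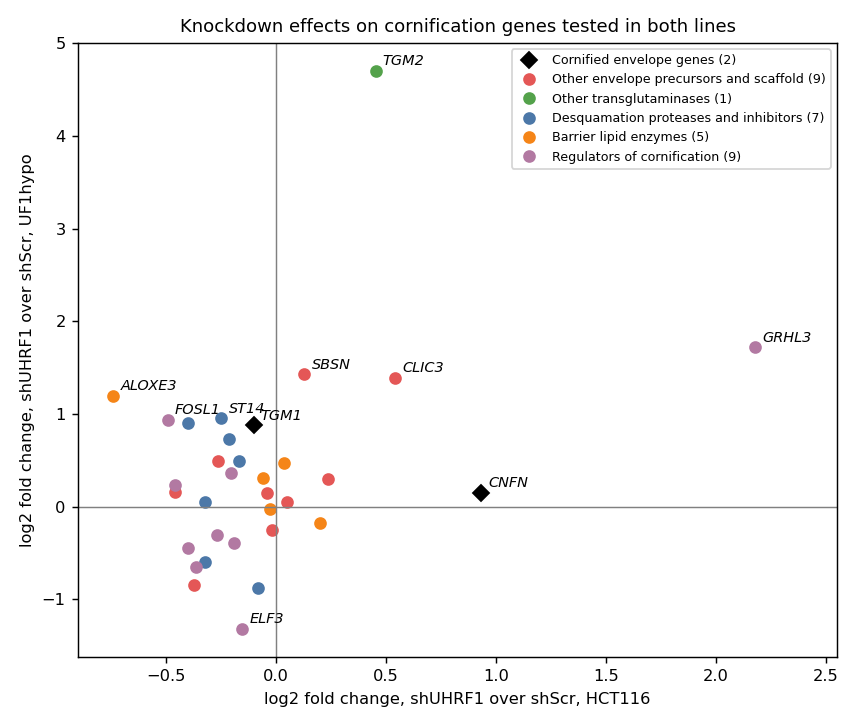
Log2 fold change on knockdown in HCT116 (x axis) against that in UF1hypo (y axis) for cornification genes that were tested in both lines, coloured by list with the number plotted. TGM2 is far above the other points at 4.70 in UF1hypo, GRHL3 is high in both lines, and CNFN and TGM1 (black diamonds) lie among the genes that were not called.

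Markers of several cell types, colorectal ones included, also differed between groups, though not all in the same direction. On knockdown the mean of EPCAM went from 367.8 to 306.5 TPM in HCT116 and from 341.9 to 244 TPM in UF1hypo. The mean of CDH1 went from 42.5 to 36.7 TPM in HCT116 and from 55.8 to 107 TPM in UF1hypo. None of these changes was called. Of 10 colorectal epithelial markers, 7 were tested, and KRT20 was called higher on knockdown in UF1hypo at a log2 fold change of 3.18 (limma, adjusted p = 7.51e-05), in all 19 alternatives as well. In the comparison of lines with shScr, KRT20 (1.96), KRT8 (1.16), KRT18 (1.14) and KRT19 (1.02) were called higher in UF1hypo (limma, adjusted p at most 0.00724). Of these, KRT20 was called in all 19 alternatives, KRT18 in 18, KRT8 in 15 and KRT19 in 14. Of 11 basal and suprabasal keratinocyte markers, 7 were tested in UF1hypo and 5 were called higher on knockdown, KRT14 (3.62), KRT5 (2.51), KRT16 (1.74), KRT10 (1.18) and KRT6A (1.02 on the log2 scale, limma, adjusted p at most 0.028). The KRT6A call was lost in 10 of 19 alternatives, which were a pseudocount of 0.1, FPKM, median-ratio scaling, the 4 UF1hypo libraries alone, the GC content and length correction, and the fits without replicate 1 of UF1hypo shUHRF1, either UF1hypo shScr library or either HCT116 shUHRF1 library. The KRT10 call was lost with the 4 UF1hypo libraries alone and without replicate 2 of UF1hypo shScr or of UF1hypo shUHRF1. The summed level of the list was 55.1 to 68.5 TPM in HCT116, 112 to 121 in UF1hypo shScr and 267 to 273 in UF1hypo shUHRF1. KRT1 and DSC1, which mark suprabasal cells, were listed at 0 in all libraries. Of 10 leukocyte markers 3 exceeded 1 TPM (CD68, CD3D and ITGAM), while PTPRC was at most 0.0728 TPM. The list summed to 14.5 and 15.9 TPM in HCT116 shScr and 8.32 and 8.85 in HCT116 shUHRF1. In UF1hypo the sums were 41.1 and 43.9 TPM with shScr and 116 and 82.8 with shUHRF1. CD68 made up most of each sum. Its TPM went from 12.2 and 13.7 to 6.27 and 7.30 on knockdown in HCT116. In UF1hypo CD68 went from 40.6 and 42.6 to 107 and 77.7 TPM. Of 7 fibroblast markers 2 exceeded 1 TPM (COL1A1 and THY1), with sums of 21.3 to 28.9 TPM in the 6 other libraries and 43.3 to 72.0 in UF1hypo shUHRF1. The part of these markers in the values above was not tested, and in bulk RNA a change in the share of cells that express a gene cannot be told apart from a change in RNA per cell.

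The 5 tested genes whose log2(TPM + 1) followed CNFN most closely over the 8 libraries were TEX54, CTD-2410N18.5, LZTS3, AC024592.12 and RPS18, with Pearson's r of 0.9747, 0.968, 0.962, 0.960 and 0.957. These are the highest values among all tested genes, they describe 8 libraries that share groups and base composition, and no p is given. TEX54 stayed at or below 1.33 TPM, and RPS18, a ribosomal protein gene, ranged from 2058 to 2766 TPM.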

How the data were processed

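After trimming in Fastp, the authors mapped reads onto GRCh38 using HISAT2 2.0.4 and quantified genes with StringTie 2.1.4. The deposited tables give coverage (mean reads per base, not scaled for depth), FPKM (scaled by the authors for gene length and aligned bases) and TPM (scaled by the authors for length to a common total). They hold no counts, which leaves counting error unknown. Depth is an upper percentile of the ratio of coverage to FPKM over genes with an FPKM above 0.5, since that ratio differs between genes. Genes were matched to GENCODE 44 (60507 of 60649 identifiers).

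Protein-coding genes were fitted together in limma 3.58.1 (R 4.3.3) on log2(TPM + 1) with a variance trend and the 4 groups as terms, leaving 4 residual degrees of freedom, and checked on simulated data. The simulated libraries had independent noise, with the same spread in every group for a given gene. They held no differences linked to GC content, so the check does not cover those seen in UF1hypo. The genes named by rule are the 10 members, UHRF1, up to 3 called genes of each list and comparison, and the 5 genes nearest CNFN. Other related genes, among them KLK7, KLK8, KLK14, EVPL, PPL and TCHH, were named outside that rule with their values seen. CD3D, CD68, THY1, KRT20 and other markers were named after their values were seen. The members and lists were chosen with earlier results of these data known. Alternatives were no TPM filter, a pseudocount of 0.1, FPKM, median-ratio scaling, the 4 libraries alone, all annotated genes, no variance trend, the largest record, a replicate block, a GC content and length correction, and each library left out. The crossed block, and IVL and SCEL without the filter under each alternative, were chosen after seeing the data. Python 3.11.15 with numpy 2.4.6, pandas 2.3.3 and matplotlib 3.10.9 did the rest.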

Additional observations from a re-analysis of the deposited data

Results flagged for a closer look

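Of the 10 cornified envelope genes, 3 passed the TPM filter for the difference of knockdown effects and 0 of them were called. IVL, below the filter, differed by 0.65 in limma without it (adjusted p = 0.00998), under the fold threshold of 1, and its adjusted p ranged from 0.00873 to 0.183 over the alternatives, the highest with the GC content and length correction. That correction also shifts values listed at 0, as IVL was in all HCT116 libraries. Of the 37 related genes tested, 7 were called in limma for a knockdown effect that differed between UF1hypo and HCT116. Their values are given as UF1hypo minus HCT116 on the log2 scale. TGM2 differed by 4.25, KLK5 by 3.04, KLK11 by 2.21, ALOXE3 by 1.94, FOSL1, an AP-1 subunit, by 1.43, ST14, the membrane protease matriptase, by 1.202, and ELF3 by −1.16 (limma, adjusted p from 0.000737 for TGM2 to 0.0411 for ELF3). TGM2 and KLK5 were called in all 18 alternatives and KLK11 in 16, but not with a pseudocount of 0.1 or without replicate 1 of HCT116 shUHRF1. ALOXE3 was called in 12, FOSL1 in 11, ELF3 in 6 and ST14 in 4, and each of these 4 calls was lost when any one of the 4 HCT116 libraries or of the UF1hypo shScr libraries was left out.

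Of the cell type markers, the effect also differed for KRT14 by 3.64, KRT20 by 2.98, THY1 by 2.50, KRT16 by 2.12, KRT5 by 2.06, CD68 by 1.95, CD3D by 1.90 and CDH1 by 1.14 (limma, adjusted p from 0.000648 for KRT14 to 0.0283 for CD3D). CD3D and THY1 passed the TPM filter only through UF1hypo shUHRF1, the group where they were higher. KRT14, KRT20 and THY1 were called in all 18 alternatives. CDH1 was called in 11, KRT5 and KRT16 in 12, CD3D in 9 and CD68 in 16. CD68 was lost without replicate 2 of HCT116 shScr or replicate 1 of HCT116 shUHRF1, KRT5 with a pseudocount of 0.1 and without any HCT116 library or replicate 2 of UF1hypo shScr, KRT16 with a pseudocount of 0.1 and without either HCT116 shUHRF1 library, either UF1hypo shScr library or replicate 1 of HCT116 shScr, and CD3D and CDH1 with the replicate block and without any HCT116 or UF1hypo shScr library, CD3D also with a pseudocount of 0.1 and with all annotated genes.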

How the results depend on the processing

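Groups of 2 libraries and the lack of counts limit every value, and low TPM limits SPRR2D, IVL and SCEL most. Of the 10 cornified envelope genes, 0 were called in either knockdown or in their difference under any alternative run, apart from IVL on knockdown in UF1hypo with a pseudocount of 0.1 and no filter (1.97). SPRR2D, called in UF1hypo against HCT116 with shScr, was not called (0 members) with FPKM (−0.74), median-ratio scaling (−1.286), all annotated genes (−1.31) or the replicate block (−1.31). With 1 library left out the called members numbered 0 to 1 and its value ran from −1.72 to −1.31, and without replicate 1 of HCT116 shScr it could not be tested. The cause was not tested. Signs reversed for CNFN on knockdown in UF1hypo with the GC content and length correction (−0.067) and for SCEL between the lines with that correction (0.21). SCEL was at 0 and 0 TPM in UF1hypo shScr. The correction shifts values listed at 0 as well, so the reversal for SCEL is no result about that gene. With 1 library left out, CNFN ran from −0.67 to 0.97 on knockdown in UF1hypo and from −1.60 to 0.034 for the difference, TGM1 from −0.58 to 0.38 on knockdown in HCT116 (0.26 without replicate 2 of HCT116 shUHRF1), and SCEL from −0.011 to 0.073 in HCT116 and from −0.007352 to 0.50 for the difference. Related genes called numbered 0 in HCT116 with no TPM filter or the replicate block, in place of 1, and 4 for the difference with a pseudocount of 0.1, in place of 7. With 1 library left out they numbered 0 to 1 in HCT116, 5 (without replicate 1 of UF1hypo shUHRF1) to 13 (without its replicate 2) in UF1hypo in place of 8, 2 to 9 for the difference and 5 to 9 between the lines. Over all genes, called counts ran from 0 to 100 in HCT116 (9 as reported), 563 to 2255 in UF1hypo (1162), 171 to 2142 for the difference (702) and 149 to 594 between the lines (455). The difference could not be fitted from 4 libraries alone. Libraries of the same number share only that number, with correlations of their deviations of −0.029 to 0.055 between groups and −0.40 between the UF1hypo groups. The replicate block called 1, 1110, 471 and 369 genes in the comparisons in the same order, and the crossed block 17, 1207, 693 and 484.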
